A study of Danio rerio with 6 samples.

Results

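Genes of the cell cycle, the cyclin-dependent kinase (CDK) inhibitors and the p53 pathway were examined in sorted endothelial cells of the regenerating adult zebrafish heart. The members were chosen by name. Of 48 names, 47 matched the names paired with the Ensembl gene IDs of the count tables, and these stood for 51 of the 32520 IDs counted. No ID carried the name cdkn1d. Both cdkn1ba and cdkn1bb matched the same 2 IDs under the human-style name CDKN1B, and the files do not say which ID is which copy. Names are given as the ID table spells them. Only 10 of the 51 IDs had enough counts to be tested.

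The DNK group had 3 libraries and the CtrlK group 3, all from fish of strain Tu sampled 7 days after part of the ventricle was amputated. DNK fish carried kdrl:eGFP, kdrl:CreER and the switch construct ubi:loxp-DsRed-stop-loxp-DN-xBrg1, so that after 3 days of 4-hydroxytamoxifen (4-HT), given before the resection, endothelial cells made Xenopus Brg1 in a dominant-negative version. Brg1 is the ATPase that powers SWI/SNF chromatin remodelling. CtrlK fish carried the same construct, still silent, and kdrl:eGFP but no CreER and, per the treatment protocol, received the same 4-HT, although other labels call them wild-type siblings or untreated. The dominant-negative protein, the CreER driver and, if CtrlK fish were untreated, 4-HT cannot be told apart. GFP-positive cells, which are endothelial and endocardial under the kdrl promoter, were sorted from ventricles of about 15 hearts. Whether each replicate was its own pool of fish is not stated in the labels. The p-values therefore cover only the spread seen among these 6 libraries, and that spread may be technical.

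Cells enter the cycle when D-type and then E-type cyclins activate CDKs and the retinoblastoma block on E2F transcription factors is lifted. E2F targets such as the MCM helicase then copy the genome, and cyclin A and B with CDK1 drive mitosis. CDK inhibitors of the CIP/KIP and INK4 families hold these kinases back. After DNA damage or other stress, p53 induces brakes on the cycle, such as the CDK inhibitor p21, together with its own inhibitor mdm2. Endothelial and endocardial cells of the zebrafish heart are known to take part in the response to injury.

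Libraries were shallow and differed in ways that ran with the groups. Gene counts came to 200646 to 227373 in DNK (1.47% to 1.48% of the reads listed) and 174371 to 216713 in CtrlK (1.08% to 1.27%). At this depth 3 counts in a library correspond to 17.7 to 19.4 normalized CPM in DNK and 16.2 to 19.1 CPM in CtrlK, so a count of 0 allows a level up to about that size. CPM is the usual unit of counts scaled to a common library total, here the total over tested genes adjusted by TMM factors. Reads outside annotated genes numbered 3.18 to 3.73 per gene count in DNK and 4.85 to 6.003 in CtrlK, and the groups did not overlap. Genes with at least 1 count numbered 14676 to 15104 in DNK and 15810 to 16021 in CtrlK, also without overlap. Summed levels of 292 IDs named as odorant or related receptors, which are not known as heart endothelial genes, were 1770, 2061 and 1850 CPM in DNK replicates 1, 2 and 3 and 3261, 2950 and 2346 CPM in CtrlK replicates 1, 2 and 3. Counts of the Xenopus transgene, which would check the labels, were not in the tables used here. Endothelial markers were present (19 of 20 IDs with a count, one CLDN5 copy at 0) and summed to 2931 to 3566 CPM in DNK and 1851 to 2594 in CtrlK, with 494 counts of cdh5, 37 of kdrl, 96 of flt1 and 74 of FLT4 in DNK and 389, 26, 160 and 108 in CtrlK. Markers of other cells were also present. Macrophage and neutrophil markers (20 of 23 IDs with a count, lyz and mmp13a among the 3 at 0) summed to 1993 to 2143 CPM in DNK and 798 to 1532 in CtrlK. Cardiomyocyte markers (13 of 15 IDs, tpma at 0) summed to 1197 to 1606 CPM in DNK and 772 to 1127 in CtrlK. Fibroblast and mural cell markers (18 of 18) summed to 2348 to 2459 CPM in DNK and 1704 to 1942 in CtrlK, and lymphocyte markers (11 of 12, cd79a at 0) to 224 to 281 CPM in DNK and 463 to 651 in CtrlK. The lymphocyte sum was mostly cd8a, and without it the sums were 77.6 to 91.5 CPM in DNK and 80.9 to 166 in CtrlK, which overlapped. Erythrocyte markers (6 of 7, hbaa2 at 0) summed to 90.6 to 183 CPM in DNK and 102 to 143 in CtrlK, and thrombocyte markers (8 of 8) to 526 to 809 CPM in DNK and 610 to 964 in CtrlK. Without alas2 the erythrocyte sums were 64.7 to 82.7 CPM in DNK and 102 to 116 in CtrlK. Without the THBS1 ID with the most counts the thrombocyte sums were 110 to 130 CPM in DNK and 31.9 to 88.2 in CtrlK. Neither overlapped. Without their most counted marker the endothelial, cardiomyocyte, macrophage and neutrophil, and fibroblast and mural cell sums stayed higher in DNK without overlap. Single markers of several types passed the edgeR test (adjusted p below 0.05), as did 7.12% of all tested genes. Higher in DNK were vwf of endothelium (log2 fold change 1.59, adjusted p 0.0179) and atp2a2a of cardiomyocytes (2.03, 0.0453). So were COL1A2 (1.54, 0.0229) and PDGFRB (1.70, 0.02055) of fibroblasts and mural cells, and cd8a was lower (−1.38, 0.0226). Of 10 tested endothelial IDs 8 were positive and 1 passed, with a median log2 fold change of 0.68. All 6 tested macrophage and neutrophil IDs were positive and 0 passed, with a median of 0.96. The part of these differences in the results below was not tested, and fewer cells of a type cannot be told apart from less RNA per cell.

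In the cells sorted from DNK hearts, transcripts of a CDK inhibitor, CDKN1B, were about 3 times as abundant as in CtrlK with TMM scaling. Of the 10 tested members, only CDKN1B passed the test. Cyclin D1 (CCND1), topoisomerase IIα (TOP2A) and cyclin G1 (CCNG1) had values of similar direction that did not pass. The proliferation marker mki67 and the p53 inhibitor mdm2 had negative values that did not pass. Genes of DNA replication were too scarce to test. Across all 3792 tested genes, edgeR's quasi-likelihood test with Benjamini-Hochberg adjustment called 7.12% at an adjusted p below 0.05, 4.72% higher and 2.40% lower in DNK. The balance of that split turned with the scaling, to 112 higher and 248 lower by library size alone and to 55 higher and 1024 lower with the 200 most abundant genes. The 1 call among 10 tested members is therefore near that background. The median log2 fold change was 0.84 over the 10 tested members and −0.07 over all tested genes, and 7 of the 10 members were positive. The DNK and CtrlK libraries did not overlap for 4 of the 10 members, 3 higher and 1 lower in DNK, against 30.8% of all tested genes, 16.2% higher and 14.6% lower.

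**Figure D1:**
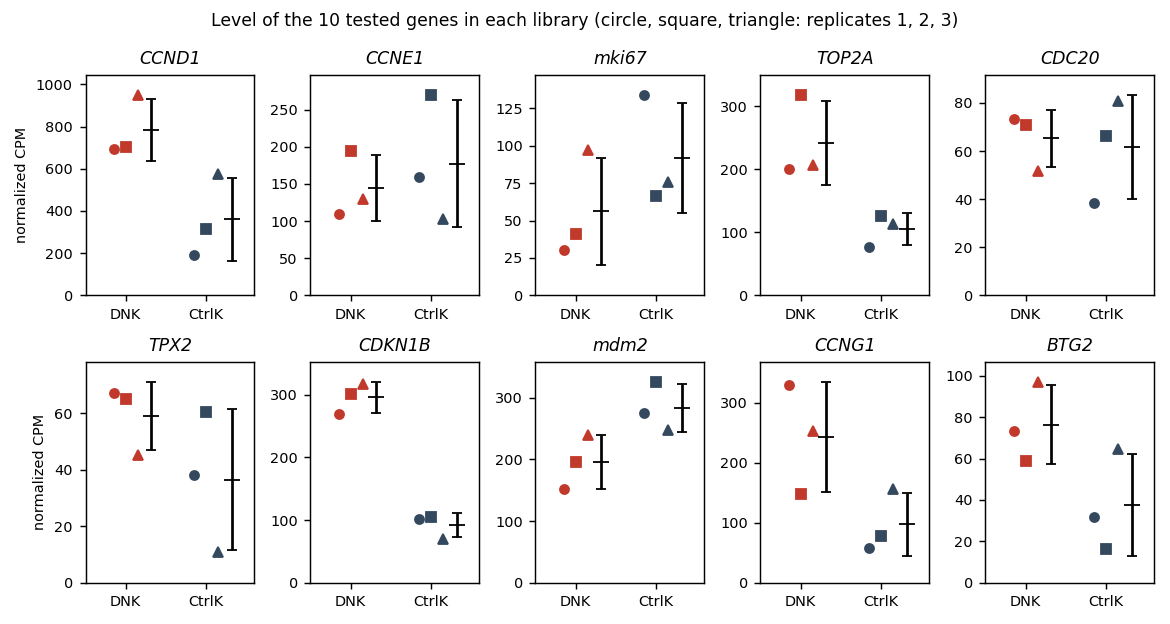
Normalized CPM (y axis, from 0) of the 10 tested genes in DNK (left, red) and CtrlK (right, blue), with circles, squares and triangles for replicates 1, 2 and 3 and black bars for the mean ± SD. CDKN1B, CCND1 and TOP2A do not overlap between groups and are higher in DNK, and mdm2 does not overlap and is lower in DNK.

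CDKN1B encodes p27, which binds and blocks cyclin E-CDK2 and cyclin A-CDK2. CDKN1B (ENSDARG00000054271) had 44, 51 and 49 counts in DNK replicates 1, 2 and 3 and 16, 19 and 13 in CtrlK replicates 1, 2 and 3. Normalized, these were 269, 301 and 317 CPM in DNK and 102, 105 and 70.1 CPM in CtrlK. All 3 DNK libraries were above all 3 CtrlK libraries, with a wide gap and little spread within either group. CDKN1B averaged 296 ± 24.7 CPM in DNK and 92.3 ± 19.3 CPM in CtrlK (SD, n = 3 each). The difference was 1.67 ± 0.36 (SE) on the log2 scale, or 3.19-fold, and CDKN1B rose in DNK by edgeR (adjusted p = 0.0158). Of all tested genes, 3.01% had a larger log2 fold change. Leaving out any 1 library kept the CDKN1B call, with log2 fold changes of 1.53 to 1.80 and adjusted p by edgeR of 0.0362 to 0.0454.

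The CDKN1B call depended on how libraries were scaled. When libraries were scaled to the 200 most abundant genes, the CDKN1B log2 fold change was 0.88 and the call was lost (adjusted p by edgeR 0.112, over a range of 0.00301 to 0.112 across 18 alternatives). That scaling also moved the median of all tested genes to −0.86, and scaling by library size alone moved it to −0.39. Relative to the median of all genes, the CDKN1B value was 1.75 as reported, 1.75 by library size alone and 1.73 when scaled to the 200 most abundant genes. Such scalings move all genes by nearly the same amount, so these 3 values stay close by construction. They are no further test of CDKN1B, and those of mki67 stayed as close (−0.63, −0.62 and −0.64). When each library's reads outside genes per gene count, which run with the groups, entered the model as a covariate, the CDKN1B value was 2.64 on the log2 scale (adjusted p by edgeR 0.706), and edgeR called 0 genes, with 247 at an unadjusted p under 0.05. That fit is counted apart from the 18 alternatives. In it the values of CCND1 (−0.57), CCNG1 (−1.004) and BTG2 (−0.45) were negative and that of mki67 (1.13) was positive, and 0 members passed.

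The other CDK inhibitors had too few counts to be tested. The other CDKN1B ID (ENSDARG00000029018) had 2, 1 and 3 counts in DNK replicates 1, 2 and 3 and 0 in each CtrlK library. cdkn1a, which encodes p21, the CDK inhibitor best known as a p53 target, had 3 counts in DNK and 1 in CtrlK. cdkn1ca, a p57 gene, and CDKN2C, an INK4 inhibitor of CDK4 and CDK6, had 0 counts in all 6 libraries. Of further CDK inhibitor genes, cdkn1cb, another p57 gene, had the most, with 8, 17 and 8 counts in DNK replicates 1, 2 and 3 and 7, 2 and 13 in CtrlK replicates 1, 2 and 3, and the groups overlapped. CDKN3 had 0 in DNK and 1 in CtrlK, and CDKN2D and cdkn2a/b had 0 in all libraries. At this depth 1 of the 5 CDK inhibitor IDs among the members could be tested.

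Of the G1 cyclins and their kinase, 2 of 6 IDs were tested and by edgeR 0 passed, with 0 also by DESeq2 and limma-voom. By edgeR 1 ID had an unadjusted p under 0.05. Over all 3792 tested genes, 942 had such a p, and DESeq2 called 303 and limma-voom 184. CCND1, cyclin D1, which partners CDK4 and CDK6 and responds to growth factors, had 696, 703 and 951 CPM in DNK replicates 1, 2 and 3 and 191, 314 and 577 CPM in CtrlK replicates 1, 2 and 3. The groups did not overlap, but CtrlK replicate 3 lay much closer to DNK than did the other CtrlK libraries. The CCND1 difference was 1.11 ± 0.37 on the log2 scale (SE, adjusted p by edgeR 0.0828). Without CtrlK replicate 3 the CCND1 log2 fold change was 1.65 and passed (adjusted p by edgeR 0.0186, over a range of 0.0186 to 0.382 across the same alternatives). CCND1 also passed with no filter on low counts (adjusted p by edgeR 0.0396) and when scaled to reads outside genes (0.0239). Scaling to reads outside genes raised most genes, and moved the median of all tested genes from −0.07 to 0.34. CtrlK replicate 3 also had the highest summed level of macrophage and neutrophil markers in its group, 1532 CPM against 798 and 882 CPM in CtrlK replicates 1 and 2. Also highest were its endothelial (2594 against 1851 and 2012), cardiomyocyte (1127 against 1021 and 772) and fibroblast and mural cell sums (1942 against 1889 and 1704). Its lymphocyte, erythrocyte and thrombocyte sums were not the highest. Reads outside genes per gene count were fewest in it, 4.85 against 6.003 and 5.61. The part of these differences in the CCND1 value was not tested.

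Cyclin E and the other G1 members gave no call. CCNE1, cyclin E1, the partner of CDK2 at the start of DNA replication, had 110, 195 and 129 CPM in DNK and 160, 270 and 103 CPM in CtrlK, and the groups overlapped (log2 fold change −0.29 ± 0.44, SE, adjusted p by edgeR 0.717). Its sign turned without CtrlK replicate 2 (0.18) and when scaled to reads outside genes (0.14). CCNE2 had 12 counts in DNK and 19 in CtrlK, and CDK2 had 1 in each group. The 2 IDs named CCND2, cyclin D2, had 7 and 1 counts in DNK and 3 and 1 in CtrlK. Within a library the count of CCND1 was 6.33, 3.61 and 7.35 times that of CCNE1 in DNK replicates 1, 2 and 3, and 1.20, 1.16 and 5.63 times in CtrlK replicates 1, 2 and 3. This ratio, which does not depend on scaling between libraries, overlapped between the groups because of CtrlK replicate 3.

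**Figure D2:**
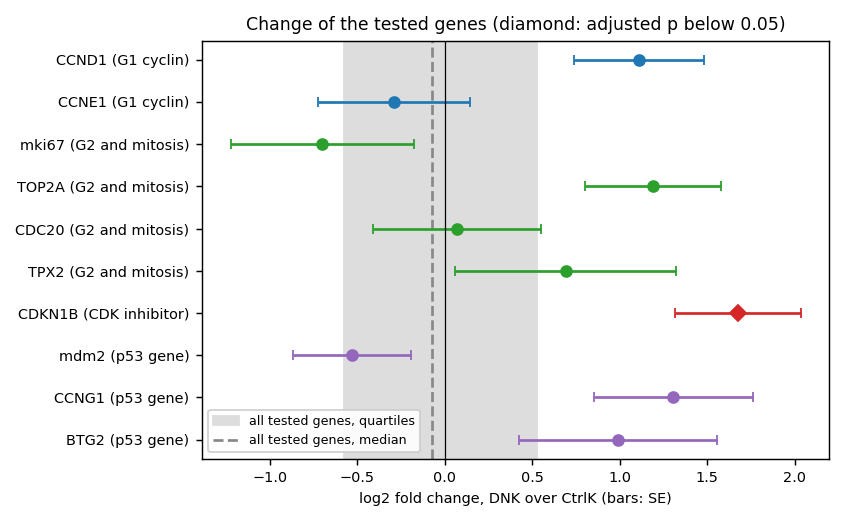
Log2 fold change of DNK over CtrlK (x axis, bars are SE) for the 10 tested genes, coloured by role, with the quartiles (grey) and the median (dashed) of all tested genes. CDKN1B at 1.67 is the only gene past the threshold, and mki67 and mdm2 lie at −0.70 and −0.53.

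Of the DNA replication genes, 0 of 14 IDs could be tested. PCNA, the sliding clamp of the replication fork, had 16 counts in DNK and 19 in CtrlK. The MCM subunits, which form the replicative helicase, went both ways. MCM2, MCM3, MCM4, MCM5 and MCM7 had 8, 4, 9, 7 and 5 counts in DNK and 2, 3, 12, 2 and 4 in CtrlK. The 2 IDs named MCM6 had 4 counts each in DNK and 26 and 13 in CtrlK. RRM1, the large subunit of ribonucleotide reductase, which makes deoxyribonucleotides, had 8 counts in DNK and 30 in CtrlK (3, 4 and 1 in DNK replicates 1, 2 and 3 and 15, 12 and 3 in CtrlK replicates 1, 2 and 3). The 2 IDs named RRM2, its small subunit, had 6 and 3 counts in DNK and 4 and 1 in CtrlK. CDC6 and CDC45, which load and activate the helicase, had 8 and 1 counts in DNK and 10 and 6 in CtrlK. TYMS, thymidylate synthase, had 1 count in DNK and 2 in CtrlK.

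The summed level of the 14 replication IDs was 189, 171 and 155 CPM in DNK replicates 1, 2 and 3 and 243, 298 and 227 CPM in CtrlK replicates 1, 2 and 3, a ratio of means of 0.672. Every DNK library was below every CtrlK library. Means of RRM1 were 16.1 CPM in DNK and 59.4 CPM in CtrlK, and those of MCM6 (ENSDARG00000033231) were 7.94 and 48.6 CPM. By contrast, 6 of the 14 IDs had the higher mean level in DNK. Without RRM1 the sums were 171, 148 and 149 CPM in DNK and 147, 232 and 210 CPM in CtrlK, and the groups overlapped. The odorant and related receptor genes had nearly the same ratio of means, 0.664, and whether the same difference between libraries enters the replication sum was not tested.

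Of the G2 and mitosis genes, 4 of 18 IDs were tested and by edgeR 0 passed, with 0 also by DESeq2 and limma-voom. At an unadjusted p under 0.05 were 1 of these IDs and 942 of all 3792 tested genes. The median log2 fold change of the 4 IDs was 0.38, against −0.07 over all tested genes. TOP2A, which untangles replicated DNA, had 201, 319 and 207 CPM in DNK and 76.6, 127 and 113 CPM in CtrlK. The groups did not overlap, which was so for 16.2% of all tested genes in that direction. TOP2A averaged 242 ± 66.3 CPM in DNK and 106 ± 25.99 CPM in CtrlK (SD, n = 3 each). Its log2 fold change of 1.19 ± 0.39 (SE) did not pass (adjusted p by edgeR 0.0757). Only when scaled to reads outside genes did it pass (adjusted p by edgeR 0.0168, with 0.0168 to 0.422 over the alternatives), but that scaling raised most genes.

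The antigen Ki-67, the usual histological marker of cycling cells, is encoded by mki67. mki67 had 5, 7 and 15 counts in DNK replicates 1, 2 and 3 and 21, 12 and 14 in CtrlK replicates 1, 2 and 3, which gave 30.5, 41.3 and 97.0 CPM in DNK and 134, 66.2 and 75.5 CPM in CtrlK. The groups overlapped through DNK replicate 3, and the log2 fold change was −0.70 ± 0.52 (SE, adjusted p by edgeR 0.430). TOP2A and mki67 thus had fold changes of opposite sign, and the count of TOP2A was 6.60, 7.71 and 2.13 times that of mki67 in DNK and 0.571, 1.92 and 1.50 times in CtrlK. Every DNK ratio was above every CtrlK ratio, but narrowly, at 2.13 in DNK replicate 3 against 1.92 in CtrlK replicate 2. These 2 ratios rest on 15 and 12 counts of mki67. How often other pairs of genes separate the groups was not tested.

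CDC20, the activator of the anaphase-promoting complex, had 73.2, 70.9 and 51.8 CPM in DNK and 38.3, 66.2 and 80.9 CPM in CtrlK, and a difference of 0.07 ± 0.48 on the log2 scale (SE, adjusted p by edgeR 0.938) whose sign turned with library size alone (−0.23). TPX2, a spindle assembly factor that activates Aurora A, had 67.1, 65.0 and 45.3 CPM in DNK and 38.3, 60.6 and 10.8 CPM in CtrlK (log2 fold change 0.69 ± 0.63, SE, adjusted p by edgeR 0.522). Both genes overlapped between the groups.

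The mitotic cyclins, with too few counts for the test, did not share a direction. CCNB1 had 10, 3 and 8 counts in DNK and 1, 2 and 8 in CtrlK, whereas CCNB2 had 7, 5 and 2 in DNK and 12, 8 and 15 in CtrlK. CCNA2, cyclin A2, had 4, 8 and 6 counts in DNK and 9, 17 and 7 in CtrlK. KIF23, a kinesin of the cytokinetic midzone, had 3, 2 and 1 counts in DNK and 7, 12 and 5 in CtrlK, so that every CtrlK library held more counts than any DNK library. The share of genes with so few counts that separate the groups was not counted. The kinase genes aurka, AURKB, plk1 and bub1 had 0, 6, 3 and 1 counts in DNK and 5, 5, 3 and 2 in CtrlK. kif11, CENPF and BIRC5 had 1, 0 and 1 counts in DNK and 5, 1 and 0 in CtrlK. CDK1, UBE2C and NUSAP1 had 0 counts in all 6 libraries, below the level of 3 counts per library that a 0 allows. CDK1 is the kinase that cyclins A and B activate in mitosis.

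Together, the 28 untested replication, G2 and mitosis IDs summed to 372, 289 and 291 CPM in DNK replicates 1, 2 and 3 and 491, 551 and 437 CPM in CtrlK replicates 1, 2 and 3, a ratio of means of 0.644. The groups did not overlap, with RRM1 or without it (ratio 0.695). With the 4 tested genes added, the sums were 744, 785 and 692 CPM in DNK and 779, 871 and 717 CPM in CtrlK, and the groups overlapped. The G2 and mitosis IDs alone summed to 537 to 614 CPM in DNK and 491 to 573 CPM in CtrlK, which overlapped. Without TOP2A they summed to 295 to 354 CPM in DNK and 378 to 459 CPM in CtrlK, with no overlap. The ratio of the untested sum lies beside that of the odorant and related receptors (0.664). More genes had a count in every CtrlK library than in any DNK library. How often sums of other genes with few counts separate the groups was not counted. The part in the untested sum of that difference, of the reads outside genes or of other cell types was not tested.

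**Figure D3:**
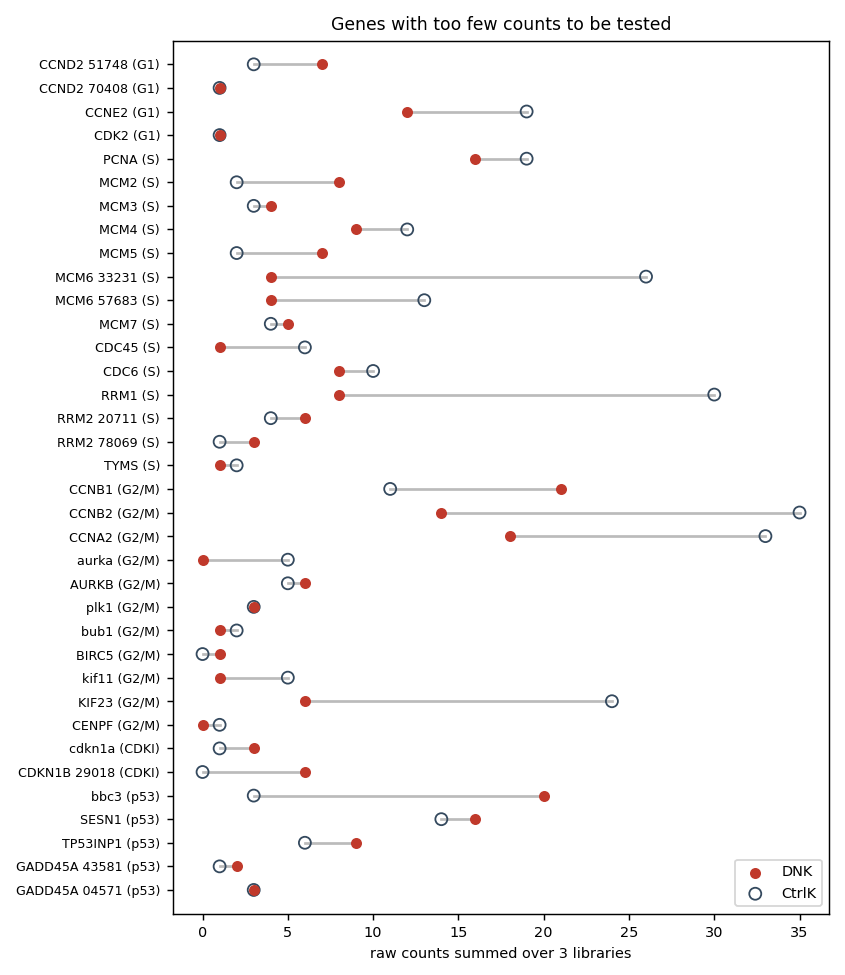
Raw counts summed over 3 libraries (x axis) for the untested member IDs with at least 1 count, in DNK (filled red) and CtrlK (open blue), with roles in brackets (S is DNA replication, CDKI is CDK inhibitor) and, where 2 IDs share a name, the end of the ID. MCM6, RRM1, CCNB2, CCNA2 and KIF23 have more counts in CtrlK, and bbc3 and CCNB1 have more in DNK.

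Among all 41 untested IDs, 5 had 0 counts in all libraries, 18 had 1 to 9 counts and 18 had 10 or more, up to 51. With no filter on low counts, the 5 IDs at 0 still could not be fitted. Of the others edgeR called 0, the smallest adjusted p being 0.131 for bbc3. An unadjusted p under 0.05 was found for 6, namely MCM6 (ENSDARG00000033231), RRM1, aurka, KIF23, CDKN1B (ENSDARG00000029018) and bbc3. Over all genes fitted with no filter, 2324 of 23176 had such a p.

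Of the p53 regulator and target genes, 3 of 8 IDs were tested and by edgeR 0 passed, with 0 also by DESeq2 and limma-voom. At an unadjusted p under 0.05 were 1 of these IDs and 942 of all 3792 tested genes. CCNG1, cyclin G1, a p53 target that recruits a phosphatase to MDM2, had 330, 148 and 252 CPM in DNK and 57.4, 77.2 and 156 CPM in CtrlK. DNK replicate 2 and CtrlK replicate 3 overlapped. The CCNG1 difference was 1.31 ± 0.46 on the log2 scale (SE, adjusted p by edgeR 0.0928). It passed without CtrlK replicate 3 (log2 fold change 1.86, adjusted p by edgeR 0.0454). It also passed when scaled to reads outside genes (adjusted p by edgeR 0.0277), but that scaling raised most genes. Its adjusted p by edgeR ran between 0.0277 and 0.336 over the alternatives.

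BTG2, an antiproliferative gene that p53 can induce, had 73.2, 59.0 and 97.0 CPM in DNK and 31.9, 16.5 and 64.7 CPM in CtrlK, and a difference of 0.99 ± 0.57 on the log2 scale (SE, adjusted p by edgeR 0.296). CtrlK replicate 3 was the highest of its group, and without that library the BTG2 log2 fold change was 1.67. The same library was the highest of CtrlK for 4 of the 10 tested members (CCND1, CDC20, CCNG1 and BTG2). Its share over all tested genes was not counted, so this is no trait of these members.

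mdm2, the ubiquitin ligase that removes p53 and is itself a p53 target, went the other way. mdm2 had 25, 33 and 37 counts in DNK replicates 1, 2 and 3 and 43, 59 and 46 in CtrlK replicates 1, 2 and 3, or 153, 195 and 239 CPM in DNK and 274, 325 and 248 CPM in CtrlK. Every DNK library was below every CtrlK library, which was so for 14.6% of all tested genes, and the log2 fold change of −0.53 ± 0.34 (SE) did not pass (adjusted p by edgeR 0.358). Scaled to the 200 most abundant genes it was −1.32 and passed (adjusted p by edgeR 0.0246, over a range of 0.0246 to 0.874), but that scaling lowers most genes. Within a library, CDKN1B had 1.76, 1.55 and 1.32 times the count of mdm2 in DNK and 0.372, 0.322 and 0.283 times in CtrlK. CDKN1B thus had more counts than mdm2 in each DNK library and fewer in each CtrlK library. Without overlap, CDKN1B lay higher and mdm2 lower in DNK, so their ratio had to separate the groups. It is no further test of CDKN1B. CCNG1 had 2.16, 0.758 and 1.05 times the count of mdm2 in DNK and 0.209, 0.237 and 0.630 times in CtrlK. The count of CDKN1B was 0.386, 0.429 and 0.333 times that of CCND1 in DNK and 0.533, 0.333 and 0.121 times in CtrlK. The ratio of CDKN1B to CCND1 thus overlapped between the groups. None of these ratios depends on scaling between libraries.

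Among the untested p53 genes, bbc3, which encodes the apoptosis inducer PUMA, had 10, 4 and 6 counts in DNK and 1, 0 and 2 in CtrlK, with no overlap between groups. For genes with so few counts the share without overlap was not counted. SESN1, a sestrin that restrains mTORC1, had 16 counts in DNK and 14 in CtrlK, and TP53INP1, a p53-induced nuclear protein, had 9 in DNK and 6 in CtrlK. The 2 IDs named GADD45A, a growth arrest gene, had 2 and 3 counts in DNK and 1 and 3 in CtrlK. Of the 8 p53 IDs, 7 had the higher mean level in DNK, by as little as 6.04 against 5.76 CPM for a GADD45A ID, and mdm2 had the lower. Among all 3792 tested genes 1775 had the higher mean in DNK, but 5 of the 8 p53 IDs had too few counts for the test. Without mdm2 the p53 IDs summed to 295 to 549 CPM in DNK and 121 to 302 CPM in CtrlK, which overlapped.

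Other genes of the same pathways were read from lists by role, which held 212 further IDs, 34 of them tested. By edgeR 1 of the 34 rose and 0 fell, near the background of 4.72% higher and 2.40% lower over all tested genes. The median log2 fold change was −0.21 and 14 were positive. Among regulators of G1 and of the E2F and retinoblastoma proteins, edgeR called 0 of 5 tested IDs (DESeq2 and limma-voom also 0). At an unadjusted p under 0.05 were 1 of these IDs and 942 of all 3792 tested genes. MYC (ENSDARG00000007241), a growth-promoting transcription factor, had 250, 218 and 285 CPM in DNK and 134, 88.2 and 156 CPM in CtrlK (log2 fold change 0.99 ± 0.37, SE, adjusted p by edgeR 0.110). pkmyt1, a kinase that inhibits CDK1, had 73.2, 106 and 97.0 CPM in DNK and 153, 171 and 162 CPM in CtrlK (log2 fold change −0.81 ± 0.41, SE, adjusted p by edgeR 0.234). Neither gene overlapped between groups, which was so for 16.2% of all tested genes higher in DNK and 14.6% lower.

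Further replication factors gave 0 calls in 4 tested IDs by edgeR (DESeq2 and limma-voom also 0, and 0 IDs at an unadjusted p under 0.05), with log2 fold changes of 1.00 ± 0.56 for DUT, which clears dUTP, and −0.37 ± 0.56 for POLE, the catalytic subunit of DNA polymerase epsilon. Mitosis and chromosome segregation genes gave 0 calls in 8 tested IDs by edgeR (DESeq2 and limma-voom also 0, and 0 IDs at an unadjusted p under 0.05). Of these, 7 had negative values, with a median of −0.35. SMC2, a condensin subunit, had a log2 fold change of −0.92 ± 0.57 and ECT2, a cytokinesis factor, one of −0.50 ± 0.35. In the checkpoint and repair list edgeR called 0 of 2 tested IDs (DESeq2 and limma-voom also 0). At an unadjusted p under 0.05 were 1 of these IDs and 942 of all 3792 tested genes. The 2 IDs were ATR, the replication stress kinase, with a log2 fold change of −0.89 ± 0.39 and an adjusted p by edgeR of 0.179, and ATM, the double-strand break kinase, with −0.44 ± 0.58.

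The further p53 regulators and targets held that 1 call. PLK3, a Polo-like kinase of stress responses, had 873, 809 and 828 CPM in DNK replicates 1, 2 and 3 and 294, 215 and 550 CPM in CtrlK replicates 1, 2 and 3. DNK libraries were tightly grouped above CtrlK, where replicate 3 was the highest. PLK3 rose in DNK (log2 fold change 1.24 ± 0.35, SE, adjusted p by edgeR 0.0451), but the call was lost in 7 of 18 alternatives, namely library size alone (adjusted p 0.0868), scaling to the 200 most abundant genes (0.252) and without any 1 library except CtrlK replicate 3 (0.117 and 0.133 without CtrlK replicates 1 and 2, and 0.115, 0.0891 and 0.0910 without DNK replicates 1, 2 and 3), over a range of 0.0094 to 0.252. The other 14 of 15 tested IDs in this list did not pass, and the median of the list was 0.23.

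**Figure D4:**
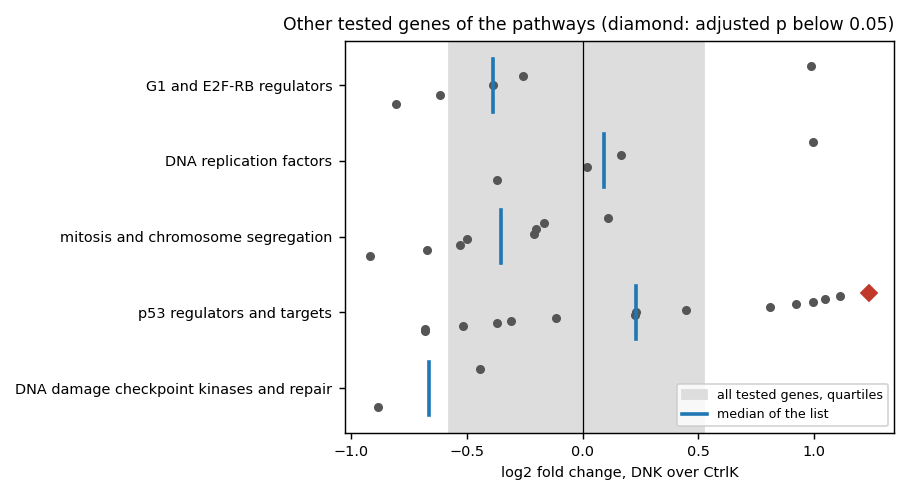
Log2 fold change of DNK over CtrlK (x axis) for the 34 other tested genes by list, with a blue bar at each list's median and the quartiles of all tested genes in grey. PLK3 at 1.24 is the only gene past the threshold, and 7 of 8 mitosis and chromosome segregation genes lie below 0.

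**Figure D5:**
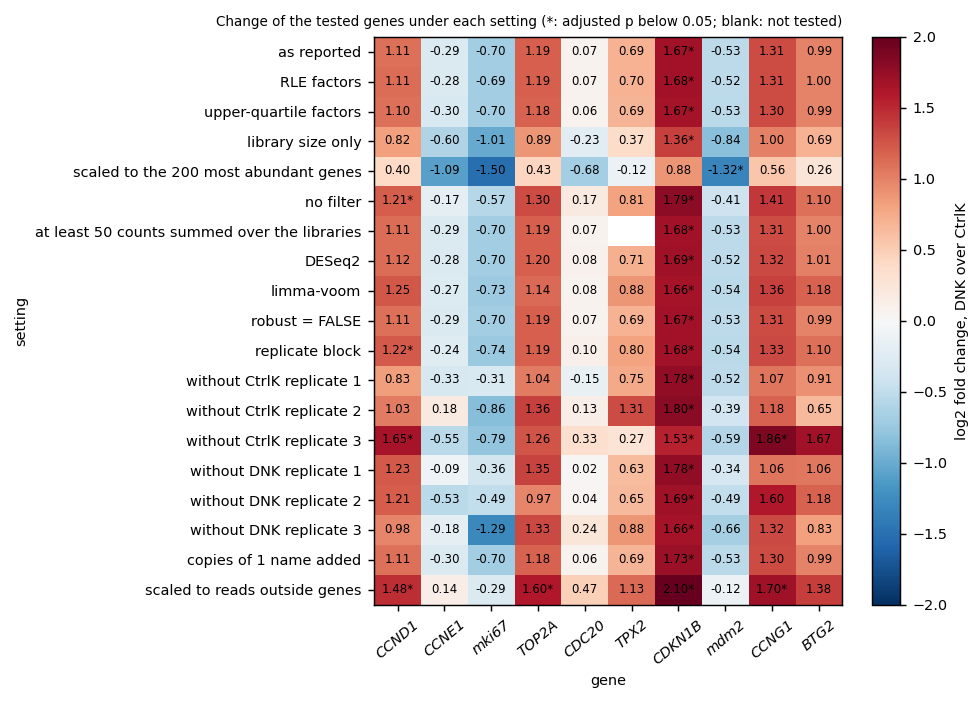
Log2 fold change of DNK over CtrlK (cell value and colour) of the 10 tested genes (columns) under the reported fit and 18 alternatives (rows), with a star at an adjusted p below 0.05. CDKN1B passes in all rows except scaling to the 200 most abundant genes, and CCND1 passes in 4 of the 18 alternatives.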

How the data were processed

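The authors deposited raw counts, 1 whole number per Ensembl gene and library, with 5 rows that name no gene and were left out here. Those rows held all but the share assigned to genes given with the depths. The build GRCz11 and, as tools, HTSeq 0.6.1, HISAT2 2.1.0, DESeq2 1.22.2 and Trim Galore 0.6.0 are named per the submitters' processing notes, without their roles or order. Per the labels' protocols, cDNA was amplified by MALBAC. Not given in the sources used here were strand, annotation release and quality minimum, and overlapping genes and near-identical copies are therefore uncertain. Without molecular identifiers, floors cover counting error only.

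Groups came from the titles. In R 4.3.3, the 3792 genes passing filterByExpr went through the quasi-likelihood test of edgeR 4.0.16, with TMM scaling and robust estimates. Each SE is the size of the log2 fold change over the root of its F statistic. The fits were tested on simulated data. Alternatives used DESeq2 1.42.0, limma-voom (limma 3.58.1), other scalings and filters, summed copies and left-out libraries. Scaling to reads outside genes and the covariate fit were chosen after seeing the data. Members and lists were chosen with earlier results of these data known. All matched members are named, with up to 4 called genes, or 2 with the smallest p, from each other list. RRM2B was not taken as a copy of RRM2. No pair of libraries agreed within sampling noise (chi-square per degree of freedom 3.08 to 9.18).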

Additional observations from a re-analysis of the deposited data

How the results depend on the processing

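Over all genes, 270 were called (179 higher and 91 lower in DNK). The splits were 112 and 248 with library size only, then 55 and 1024 (1079 in all) with scaling to the 200 most abundant genes, then 501 and 39 (540 in all) when scaled to reads outside genes. With no filter 283 were higher and with limma-voom 46 were lower. With the covariate 0 were called, 0 higher and 0 lower. Leaving out 1 library gave 89 to 277 calls, 74 to 213 higher and 14 to 64 lower.

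Of the members, 1 passed as reported, 2 with no filter, 4 when scaled to reads outside genes, 0 with the covariate and 1 to 3 with a library left out. CDKN1B lost its call only with the covariate and with scaling to the 200 most abundant genes.

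The median log2 fold change of the tested members (0.84) was 0.53 with library size only, 0.070 scaled to the 200 most abundant genes, 1.00 with at least 50 counts, 1.01 with limma-voom, 1.25 scaled to reads outside genes and 0.51 with the covariate. For G1 cyclins (0.41) it was −0.35 scaled to the 200 most abundant genes and 0.81 to reads outside genes. For G2 and mitosis genes (0.38) it was 0.070 with library size only, −0.40 scaled to the 200 most abundant genes, 0.073 with at least 50 counts, 0.80 scaled to reads outside genes and 1.00 with the covariate. For p53 genes (0.99) it was 0.26 scaled to the 200 most abundant genes and −0.45 with the covariate. With a library left out the medians were 0.79 to 0.85 for the tested members, 0.25 to 0.61 for G1 cyclins, 0.30 to 0.72 for G2 and mitosis genes and 0.65 to 1.67 for p53 genes. TPX2 failed the filter of at least 50 counts. Under that filter the medians of the tested members and of G2 and mitosis genes therefore cover a changed set of genes.

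The log2 ratio of the summed level was 0.73 for G1 genes (−0.26 without CCND1), −0.57 for replication genes (−0.80 with library size only, −0.33 without RRM1), 0.09 for G2 and mitosis genes (−0.13 with library size only, −0.39 without TOP2A), 1.74 for CDK inhibitors (3.35 without the tested CDKN1B ID, from 9 counts in DNK and 1 in CtrlK) and 0.40 for p53 genes (1.19 without mdm2).

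Signs turned for CDC20 with library size only (−0.23), scaled to the 200 most abundant genes (−0.68), without CtrlK replicate 1 (−0.15, with −0.15 to 0.33 over left-out libraries) and with the covariate (−1.43), for TPX2 scaled to the 200 most abundant genes (−0.12), and for CCNE1 without CtrlK replicate 2 (0.18, with −0.55 to 0.18 over left-out libraries), scaled to reads outside genes (0.14) and with the covariate (1.26). With the covariate they also turned for CCND1 (−0.57), mki67 (1.13), mdm2 (0.16), CCNG1 (−1.004), BTG2 (−0.45) and PLK3 (−0.21). The cause of these shifts was not tested.

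Same-numbered libraries did not deviate together (correlations −0.11 to −0.00297), and the labels do not say that the numbers pair them. With counts this low the check cannot exclude pairing. With the replicate number as a block 2 members passed, CDKN1B and CCND1 (adjusted p by edgeR 0.0445 for CCND1). Depth limits the rest, since 41 of the 51 member IDs had too few counts to be tested.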

Other observations

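The genes named here were chosen after their values were seen, so they stand as a description. Among the 15 tested IDs of the further p53 regulators and targets, 5 had DNK libraries that all lay above the CtrlK libraries, against 16.2% of all tested genes. For 0 of the 15 did DNK libraries all lie below, against 14.6% of all tested genes. Of the 15 values 9 were positive and 6 negative. Besides PLK3, the 5 with DNK above CtrlK were 4 genes that did not pass the test. The other 35 IDs of the list had too few counts and are not part of these counts. BAX, which opens the mitochondrial membrane in apoptosis, had 177, 201 and 207 CPM in DNK and 108, 44.1 and 129 CPM in CtrlK (log2 fold change 1.05 ± 0.44, SE, adjusted p by edgeR 0.154). BTG1, an antiproliferative relative of BTG2, had 287, 248 and 181 CPM in DNK and 95.7, 71.7 and 162 CPM in CtrlK (log2 fold change 1.11 ± 0.41, SE, adjusted p by edgeR 0.106). EI24 and sesn3 were the other two, with log2 fold changes of 0.92 ± 0.34 and 1.00 ± 0.46 (SE, adjusted p by edgeR 0.106 and 0.197). PPM1D (ENSDARG00000009273), a phosphatase that turns p53 signalling off, had 677, 897 and 880 CPM in DNK and 1449, 1676 and 814 CPM in CtrlK, where CtrlK replicate 3 lay among the DNK libraries (log2 fold change −0.68 ± 0.31, SE, adjusted p by edgeR 0.180).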
